A study of Mus musculus with 2 samples.

Results

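Hepatocytes that carried an intermediate amount of Nras transcript were compared with hepatocytes that carried a low amount, within the same mice. The cells were chosen on measured values. A barcode of the gene expression library was taken as a deeply sequenced hepatocyte when it held at least 10000 UMIs (unique molecules counted over genes), when mitochondrial transcripts were under 20% of them, when Alb, Apoa1, Apoa2, Ttr and Fgb together made up at least 1%, and when the MHC class II genes H2-Aa, H2-Ab1, H2-Eb1 and Cd74 made up under 0.5%. Of 13151 barcodes 2235 met this rule. Their Nras level, in UMIs per 1000000 gene UMIs (CPM), divided them into 1409 baseline cells (under 150 CPM), 462 low cells (150 to under 800), 207 intermediate cells (800 to under 2500) and 157 high cells (2500 and over). The low and intermediate cells, 669 in all, are the subject here. Nras and the mVenus transcript chose these cells or mark the same construct, so no result is given for them.

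The cells came from the livers of 3 BL6 mice 6 days after hydrodynamic tail-vein injection, which forces plasmid DNA into a minority of hepatocytes. All mice received a transposon in which the strong CAGGS promoter drives NRAS and, from the same transcript, the yellow fluorescent protein mVenus. In 2 mice the construct encoded oncogenic NRAS(G12V), and in 1 control mouse NRAS(G12V/D38A), a non-oncogenic form with a second substitution in the region that binds effectors. No mouse thus lacked the transgene. Hashtag antibodies, which carry a DNA tag, marked the cells by mouse before they were sorted for mVenus and pooled for 3′ single-cell RNA sequencing.

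NRAS is a small GTPase that relays growth factor signals through the RAF-MEK-ERK kinases, and active ERK induces immediate early transcription factors, growth factors and its own inhibitors. In hepatocytes sustained oncogenic RAS can lead to senescence, a stable arrest with secretion of inflammatory factors, and the outcome is known to depend on the amount of RAS. Mature hepatocytes are otherwise recognised by their plasma proteins, transporters and metabolic enzymes, whose transcription rests on factors such as HNF4A and CEBPA.

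The hashtag that assigns a cell to a mouse is a 15-base tag, read here from the deposited hashtag table, and the 3 tags are shown because every within-mouse comparison rests on telling them apart.
hashtag 1: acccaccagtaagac
hashtag 2: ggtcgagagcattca
hashtag 3: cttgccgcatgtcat
In the deposited table the D38A mouse carries hashtag 1, and in the study's methods it carries hashtag 3. Hashtag 2 was therefore a G12V mouse in both accounts. Mice are named by hashtag below, and a comparison of 2 Nras levels within a mouse does not depend on the pairing.

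HTODemux, which calls a cell from its hashtag counts, gave 40 low and 26 intermediate cells to hashtag 1, and 231 low and 107 intermediate cells to hashtag 2. Hashtag 3 held 4 low cells and 1 intermediate cell and was too sparse to enter the comparison. A further 176 low and 69 intermediate cells had no call, and 11 and 4 carried more than 1 tag. How many cells each mouse held depended on this call: a fixed rule, which took a cell with 10 or more hashtag UMIs of which 80% or more came from a single tag, gave 101 low and 47 intermediate cells to hashtag 1 and 78 and 36 to hashtag 2. Tag counts were shallow: cells called for hashtag 2 held a median of 39 UMIs of their tag, and cells with no call a median of 14 UMIs of hashtag 1. Cells called for hashtag 2 also held a median of 10.5 UMIs of hashtag 1. Cells with no call held medians of 2 UMIs of hashtag 2 and 3 UMIs of hashtag 3. The uncalled cells took no part in the test and are given as a separate, unassigned set. They came from the same pool of 3 mice and could not be assigned to any of them, so they are no further replicate.

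UMIs were summed per mouse and level into 4 sums of 2044567 (hashtag 1, low), 1644308 (hashtag 1, intermediate), 11380861 (hashtag 2, low) and 6691765 UMIs (hashtag 2, intermediate). Cells of 1 sum are not replicates, so n is 2 mice. The median cell held 43414 UMIs at low and 59003 at intermediate Nras. With cells matched on depth the test below called 751 genes, of which 735 were among those called with all cells. The median Nras level was 270.5 CPM (11 UMIs) in low and 1276 CPM (71 UMIs) in intermediate cells, so the low class rests on few molecules. At the limit of 800 CPM the nearest cells on either side had 782.8 and 801.0 CPM, with 23 cells within 10% below and 20 within 10% above. At 150 CPM the nearest cells had 149.3 and 150.03 CPM, and at 2500 CPM they had 2477 and 2612 CPM.

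The labelled cell type was checked with 12 hepatocyte markers that the rule did not use. All 12 were detected, and their sum was 52770 CPM at low and 48032 CPM at intermediate Nras. Markers of 8 other liver and blood cell types together reached 66.3 CPM at low and 50.1 CPM at intermediate Nras, of which the stellate and fibroblast list gave 29.6 and 23.5 CPM. Reln alone gave 27.5 and 22.7 CPM of this list, and 4 of its 9 genes were at 0 at each level. By mouse the 8 lists reached 109.0 CPM at low and 34.0 CPM at intermediate Nras in hashtag 1, and 56.9 and 48.9 CPM in hashtag 2. In hashtag 1 the macrophage list was at 25.4 CPM in low and 2.43 CPM in intermediate cells, with 2 and 6 of its 10 genes at 0. The dendritic list was at 24.9 and 5.47 CPM there, with 5 of 10 genes at 0 in both, and the endothelial list at 22.99 and 4.26 CPM, with 1 and 6 of 10 at 0. In hashtag 2 the macrophage list was at 2.46 and 4.18 CPM, the dendritic list at 3.51 and 4.78 CPM and the endothelial list at 13.4 and 6.13 CPM. The low cells of hashtag 1 thus carried more transcript of other cell types than its intermediate cells, and the part of this in the results was not tested. Leaving out cells that had over 0.2% of other-type markers kept 39 of the 40 low cells of hashtag 1 and every cell of the other sums. The test below then called 1090 genes, of which 1085 were among those called with all cells. With so little left out, this cannot show what part the other transcripts had.

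The first comparison asked which genes differ between intermediate and low Nras in the same mouse. Of 9852 genes tested 1094 passed an adjusted p of 0.05 (edgeR quasi-likelihood test with the mouse as a block, Benjamini-Hochberg), which is a background of 11.1%. Of these 504 (5.12% of genes tested) were higher and 590 (5.99%) were lower at intermediate Nras, and the median log2 fold change over all genes tested was -0.0048. Members called higher made up 11 of 16 tested in the list of growth factors and hormones, 16 of 24 in that of the cytoskeleton, annexins and S100 proteins and 6 of 7 in that of the squamous envelope. Members called lower made up 15 of 20 in the urea cycle and periportal list, 16 of 22 in that of bile acid, cytochrome P450 and xenobiotic metabolism and 23 of 30 among plasma proteins and apolipoproteins. The lists were chosen with earlier results of these data known, so these shares describe the lists and are no test. In hashtags 1 and 2 the change had the same direction for 1075 of the 1094 genes. In the uncalled cells, which came from the same mice but were not part of the fit, 1028 of the 1094 (94.0%) had the fitted direction, against 65.4% of all genes tested.

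The 4 sums leave 1 residual degree of freedom per gene, and edgeR took a spread estimated across genes in place of each gene's own. Its p-values thus rest on that shared estimate and are smaller than 2 mice could give gene by gene. DESeq2 on the same sums called 233 genes, every one of them also called by edgeR, and gave no adjusted p to 186 of the 1094. Of the 79 named genes that edgeR called, DESeq2 called 32, did not call 35 and gave 12 no adjusted p. The edgeR test without the mouse block called 478. Of the same 79 genes 34 lost their call without the block, 30 with the fixed hashtag rule, under which 3 more turned their sign, and 26 without the largest cell of each sum. The settings given beside a gene below are therefore not all that ended its call. A count free of the model was therefore also taken: of 4521 genes tested that reached 20 CPM at either level, 27 were at least 2-fold higher and 78 at least 2-fold lower in both mice, on the log2(CPM + 1) scale, and 0 were 2-fold apart in opposite directions. All 105 were also called by edgeR. In the uncalled cells 11 of the 27 and 50 of the 78 were at least 2-fold apart in the same direction.

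**Figure D1:**
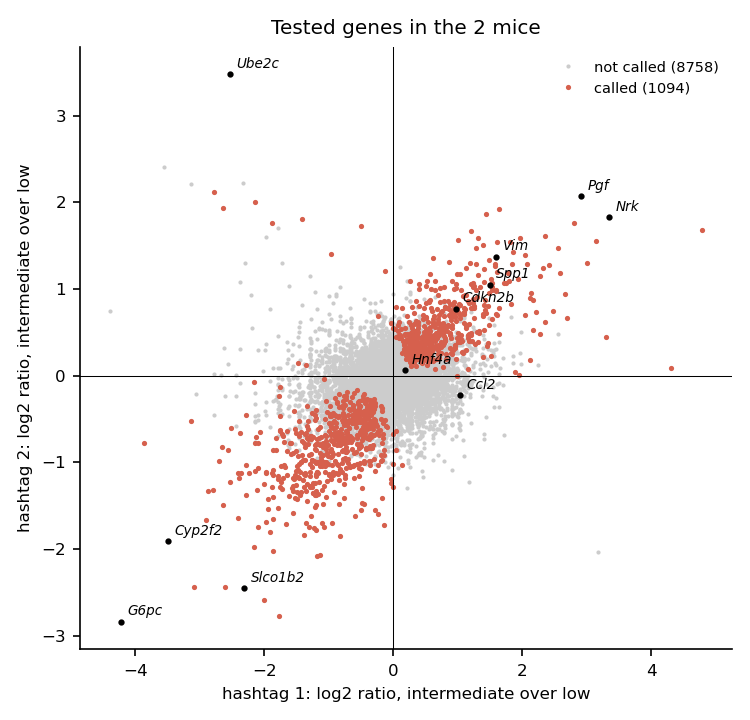
Log2 ratio of intermediate over low Nras on the CPM + 1 scale in hashtag 1 (x axis) and hashtag 2 (y axis), 1 point per gene tested, with the 1094 called genes in red and some genes named. Most called genes lie to the lower left and the upper right of the origin, and Ube2c and Ccl2 lie where the 2 mice moved in opposite directions.

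The 10 largest rises were taken among called genes that reached 20 CPM and moved the same way in both mice, and most of them encode secreted or signalling proteins. This choice makes low and intermediate sums that do not overlap likely. The share of all genes tested with such sums was not counted. Nrk, a kinase of the germinal centre kinase family that is best known from placenta (chromosome X, 138914430 to 139010532 on GRCm38), was at 7.34 CPM in low and 83.9 CPM in intermediate cells of hashtag 1. In hashtag 2 it was at 16.3 and 60.7 CPM, and in uncalled cells at 28.5 and 63.8 CPM. It rose 4.92-fold (log2 fold change 2.30, SE 0.16, edgeR adjusted p = 1.45e-42), and every intermediate sum was above every low sum. Its level was 3.73 and 4.14 CPM in baseline cells and 105.4 and 72.7 CPM in high cells of hashtags 1 and 2.

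Pgf, placental growth factor, an angiogenic ligand of the VEGF family (chromosome 12, 85166635 to 85177790), was at 1.96 CPM in low and 21.3 CPM in intermediate cells of hashtag 1, and at 6.85 and 32.1 CPM in those of hashtag 2. Uncalled cells had 3.71 and 36.4 CPM. Its fitted rise of 2.45 on the log2 scale (SE 0.26) was the largest of these 10. Npy, the secreted neuropeptide Y, had 0 UMIs in the low cells of hashtag 1 and 44 UMIs (26.8 CPM) in its intermediate cells, at least 18.2-fold higher against a floor of 3 counts in the low sum. In hashtag 2 Npy was at 6.33 and 22.4 CPM, and its call was lost with DESeq2, with the fixed hashtag rule and at 10000 UMIs per cell.

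Cxcl3, a chemokine that attracts neutrophils, was at 41.6 and 164.8 CPM in hashtag 1 and at 23.6 and 72.6 CPM in hashtag 2. Fosl1, the FRA1 subunit of the AP-1 transcription factor and a target of ERK (chromosome 19, 5447547 to 5455946), was at 3.42 and 22.5 CPM in hashtag 1 and at 10.9 and 27.8 CPM in hashtag 2. For both genes the intermediate sums lay above both low sums. Dhh, a hedgehog ligand, rose 3.10-fold and was at 27.9 and 39.2 CPM in the high cells of the 2 mice.

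The remaining rises of this set were Pcdh7, a protocadherin, Angptl4, a secreted inhibitor of lipoprotein lipase, Fabp4, a fatty acid carrier of fat cells and macrophages, and Basp1, a membrane-bound signalling protein. Their fitted folds were 3.09, 3.08, 3.02 and 2.97. In hashtag 1 Fabp4 was at 38.3 CPM in baseline, 9.29 in low, 60.8 in intermediate and 6.98 CPM in high cells, and in hashtag 2 it was at 38.8, 24.7, 57.5 and 111.3 CPM. The high cells of the 2 mice thus stood at opposite ends of its range. Its call was lost with DESeq2, that of Angptl4 with the fixed hashtag rule and that of Dhh at 10000 UMIs per cell. Over the 10 genes the log2 ratio lay between 1.31 and 4.79 in hashtag 1, between 1.19 and 2.08 in hashtag 2 and between 0.62 and 2.99 in uncalled cells.

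The 10 largest falls were mostly genes of mature hepatocyte function. Slco1b2, the sinusoidal uptake transporter for bile acids and drugs (chromosome 6, 141629518 to 141686646), was at 22.01 CPM in low and 3.65 CPM in intermediate cells of hashtag 1. In hashtag 2 it was at 59.3 and 10.0 CPM, and in uncalled cells at 14.3 and 1.82 CPM. It fell 5.78-fold (log2 fold change -2.53, SE 0.21, edgeR adjusted p = 2.65e-30). Baseline cells had 84.9 and 131.6 CPM and high cells 4.65 and 2.38 CPM, so the low cells already stood below the baseline cells.

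Cyp2f2, a cytochrome P450 of periportal hepatocytes, was at 44.5 and 3.04 CPM in hashtag 1 and at 26.9 and 6.43 CPM in hashtag 2. Mat1a, the liver enzyme that makes S-adenosylmethionine, was at 76.8 and 16.4 CPM in hashtag 1 and at 57.1 and 13.8 CPM in hashtag 2. Gnmt, which consumes S-adenosylmethionine, was at 131.6 and 32.8 CPM in hashtag 1 and at 67.0 and 20.02 CPM in hashtag 2. For all 3 enzymes the low and intermediate sums did not overlap, which their choice as large falls in both mice makes likely.

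Slc2a2, the hepatocyte glucose transporter GLUT2, fell 4.13-fold, and Apoa5, an apolipoprotein that governs plasma triglyceride, fell 3.51-fold. Pbld1 fell 3.45-fold, and Car3, carbonic anhydrase 3, fell 3.36-fold, a call lost without the mouse block. Hamp2 fell 6.64-fold and Cyp2a4 3.82-fold, but each has a near-identical copy (Hamp and Cyp2a5), so reads may have been divided between the copies. Cyp2a4 was also the 1 gene of the 10 that did not fall in uncalled cells, where it was at 441.2 CPM at low and 527.7 CPM at intermediate Nras.

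**Figure D2:**
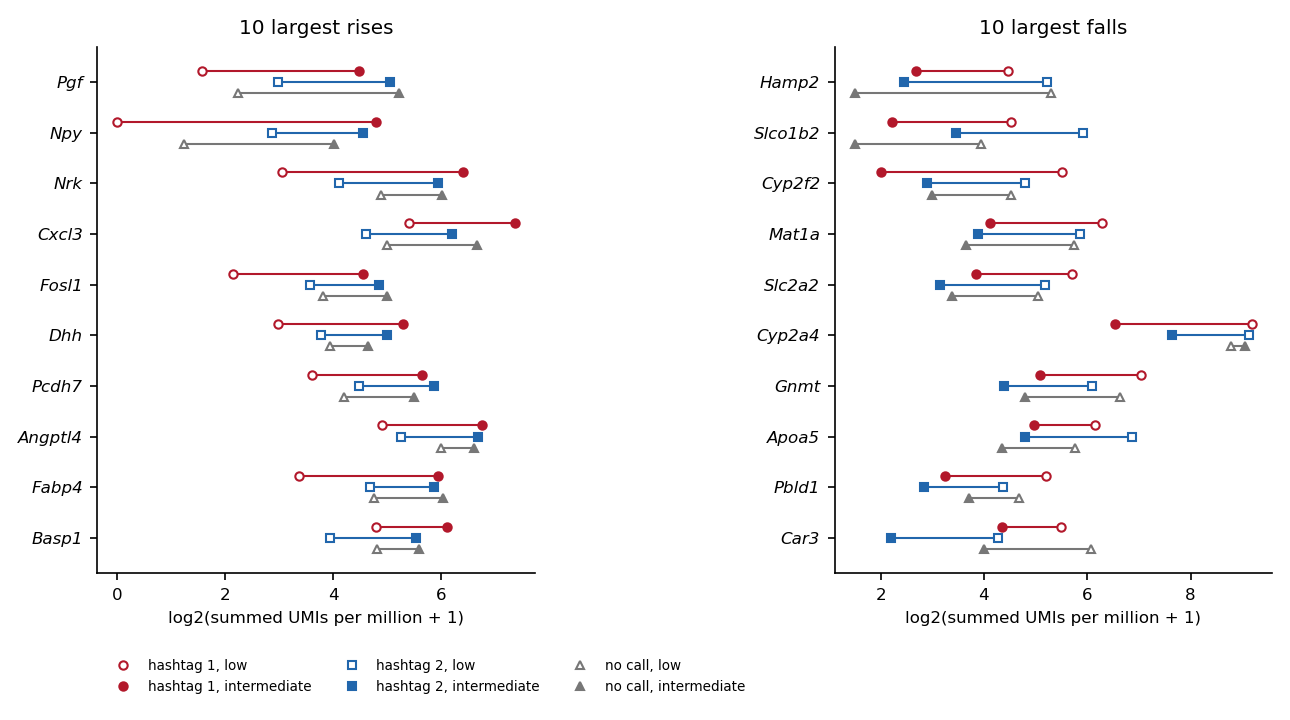
Levels of the 10 genes with the largest rise and the 10 with the largest fall, as log2 of the summed CPM plus 1, in low (open) and intermediate (filled) cells of hashtag 1, hashtag 2 and the uncalled cells. All pairs point the same way except Cyp2a4 in uncalled cells, which was at 441.2 CPM at low and 527.7 CPM at intermediate Nras.

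The region just before the start of these genes was read from RefSeq (GRCm38.p6, 250 bases before to 50 after each start), which held a promoter for 7 of the 10 rises and 8 of the 10 falls. The AP-1 motif TGANTCA, which reads the same on both strands, was in 0 of the 7 and in 1 of the 8 (Hamp2), against 8.97% of 27025 genes with a promoter. Among the called genes with a promoter it was in 42 of 442 lower genes (9.50%) and in 41 of 384 higher genes (10.7%), against 6.26% of the 7799 genes tested. These letter matches describe the windows, and whether a factor binds there was not measured. The promoter of Hamp2 is shown with the motif in capitals. Those of Slco1b2 and Nrk, a fall and a rise seen in both mice and in uncalled cells, are shown beside it, and the motif was not found in them.
Hamp2, chr7:30924132-30924431, - strand: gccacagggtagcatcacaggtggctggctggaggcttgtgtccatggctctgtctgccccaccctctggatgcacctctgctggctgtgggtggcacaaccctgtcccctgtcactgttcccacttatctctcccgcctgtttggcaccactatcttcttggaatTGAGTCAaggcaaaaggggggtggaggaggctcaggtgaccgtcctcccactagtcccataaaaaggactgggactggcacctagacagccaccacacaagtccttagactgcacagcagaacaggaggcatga
Slco1b2, chr6:141629268-141629567, + strand: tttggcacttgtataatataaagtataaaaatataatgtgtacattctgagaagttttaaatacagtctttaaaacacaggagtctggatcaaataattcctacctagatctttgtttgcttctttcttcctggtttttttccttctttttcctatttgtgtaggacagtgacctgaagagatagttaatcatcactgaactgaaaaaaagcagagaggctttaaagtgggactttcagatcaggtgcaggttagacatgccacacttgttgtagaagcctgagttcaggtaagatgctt
Nrk, chrX:138914180-138914479, + strand: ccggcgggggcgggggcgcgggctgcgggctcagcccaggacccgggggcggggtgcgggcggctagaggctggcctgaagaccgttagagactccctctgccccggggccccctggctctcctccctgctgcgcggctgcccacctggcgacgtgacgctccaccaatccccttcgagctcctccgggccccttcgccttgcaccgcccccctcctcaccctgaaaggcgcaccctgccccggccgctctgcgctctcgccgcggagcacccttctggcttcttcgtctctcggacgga

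The lists of genes were read by role, each beside the background of 5.12% higher and 5.99% lower. Since they were chosen with earlier results of these data known, a share above the background is a description only. Not all called members moved the same way in both mice. Those that did numbered 5 in the squamous envelope list and 15 in that of bile acid, cytochrome P450 and xenobiotic metabolism. There were 10 among progenitor and biliary genes and 16 in the list of the cytoskeleton, annexins and S100 proteins. There were 6 among secreted inflammatory factors, 2 in ER and integrated stress and 0 in the cell cycle. In the other lists all called members did so. In the list of ERK feedback and output 8 of 18 tested members rose, 0 fell, and the median log2 fold change was 0.57. Beside Fosl1, the stress-inducible Ier3 was at 61.6 and 179.4 CPM in hashtag 1 and at 68.4 and 136.9 CPM in hashtag 2. Etv4, an ETS factor downstream of ERK, rose 1.88-fold. Dusp6, the phosphatase that switches off ERK, was at 79.2 and 147.2 CPM in hashtag 1 and at 62.4 and 78.3 CPM in hashtag 2, a fitted log2 fold change of 0.58. The calls of Etv4 and Dusp6 were lost with DESeq2 and without the mouse block. Spry4, another inhibitor of the pathway, was at 2.45 and 5.47 CPM in hashtag 1 and at 3.25 and 4.33 CPM in hashtag 2 and did not pass the test (edgeR adjusted p = 0.437).

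The list of growth factors and hormones held 11 higher and 2 lower members of 16 tested, with a median of 1.02. It also holds the kinase gene Nrk and the genes of the growth factor binding proteins Igfbp1 and Igfbp3, and all 3 of these are among the 11. The sum over this list in the median cell was 1484 CPM at low and 4990 CPM at intermediate Nras in hashtag 1, and 1851 and 3669 CPM in hashtag 2. Cells within a level varied widely, since the middle 50% of low cells of hashtag 2 lay between 960.6 and 3696 CPM and the middle 50% of its intermediate cells between 2060 and 4817 CPM. Pgf and Npy led the rises. Igf1, the growth factor that the liver releases into blood, fell 2.31-fold, with 119.8 and 42.6 CPM in the sums of hashtag 1 and 102.3 and 47.7 CPM in those of hashtag 2. Vegfa, a second ligand of the family of Pgf, fell 1.67-fold, and its call was lost with DESeq2.

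Among secreted inflammatory factors 6 of 14 tested members rose and 1 fell, with a median of 0.33. Cxcl2, a chemokine related to Cxcl3, was at 7.83 and 54.7 CPM in hashtag 1 and at 22.4 and 43.9 CPM in hashtag 2. Its fitted log2 fold change of 1.43 was 0.39 with the fixed hashtag rule, and its call was lost with that rule and with DESeq2. Lcn2, an acute phase protein that binds siderophores, fell 1.36-fold, but it was at 90.6 and 88.5 CPM in hashtag 2 and its call was lost with DESeq2. Ccl2, which recruits monocytes, was at 117.9 and 243.3 CPM in hashtag 1 and at 145.9 and 124.6 CPM in hashtag 2. Its fitted log2 fold change of 0.33 (edgeR adjusted p = 0.0202) thus averaged opposite directions, and it was -0.18 with the fixed hashtag rule. Cxcl1 was at 374.2 and 300.4 CPM in hashtag 1 and at 152.0 and 143.8 CPM in hashtag 2 and did not pass the test (edgeR adjusted p = 0.345). Il1a, Il1b and Ptgs2, an interleukin pair and the prostaglandin enzyme COX2, were too low to be tested. Ptgs2 was at 0.98 and 0.61 CPM in hashtag 1 and at 0.79 and 8.37 CPM in hashtag 2, and in high cells at 68.2 and 25.2 CPM.

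In the list of senescence and cell cycle arrest 3 of 19 tested members rose and 1 fell, with a median of 0.16. Cdkn2b, which encodes the cyclin-dependent kinase inhibitor p15 (chromosome 4, 89306299 to 89311039), was at 185.4 and 364.9 CPM in hashtag 1, at 201.5 and 345.6 CPM in hashtag 2 and at 213.7 and 345.1 CPM in uncalled cells. It rose 1.85-fold (log2 fold change 0.89, SE 0.10, edgeR adjusted p = 1.48e-17), and high cells of the 2 mice were at 380.7 and 382.1 CPM. The chromatin protein genes Hmga1 and Hmga2 rose 2.27-fold and 1.81-fold, and the call of Hmga1 was lost with DESeq2. Hmga2 was at 115.9 and 221.4 CPM in hashtag 1 and at 134.2 and 227.0 CPM in hashtag 2.

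Other arrest genes did not pass the test. Cdkn1a, which encodes p21, was at 111.5 and 130.8 CPM in hashtag 1 and at 114.7 and 120.9 CPM in hashtag 2 (log2 fold change 0.16, SE 0.11, edgeR adjusted p = 0.455). Cdkn2a, which encodes p16 and ARF, stayed between 2.90 and 10.3 CPM in the 4 sums, and its log2 fold change of 0.47 had an SE of 0.35.

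**Figure D3:**
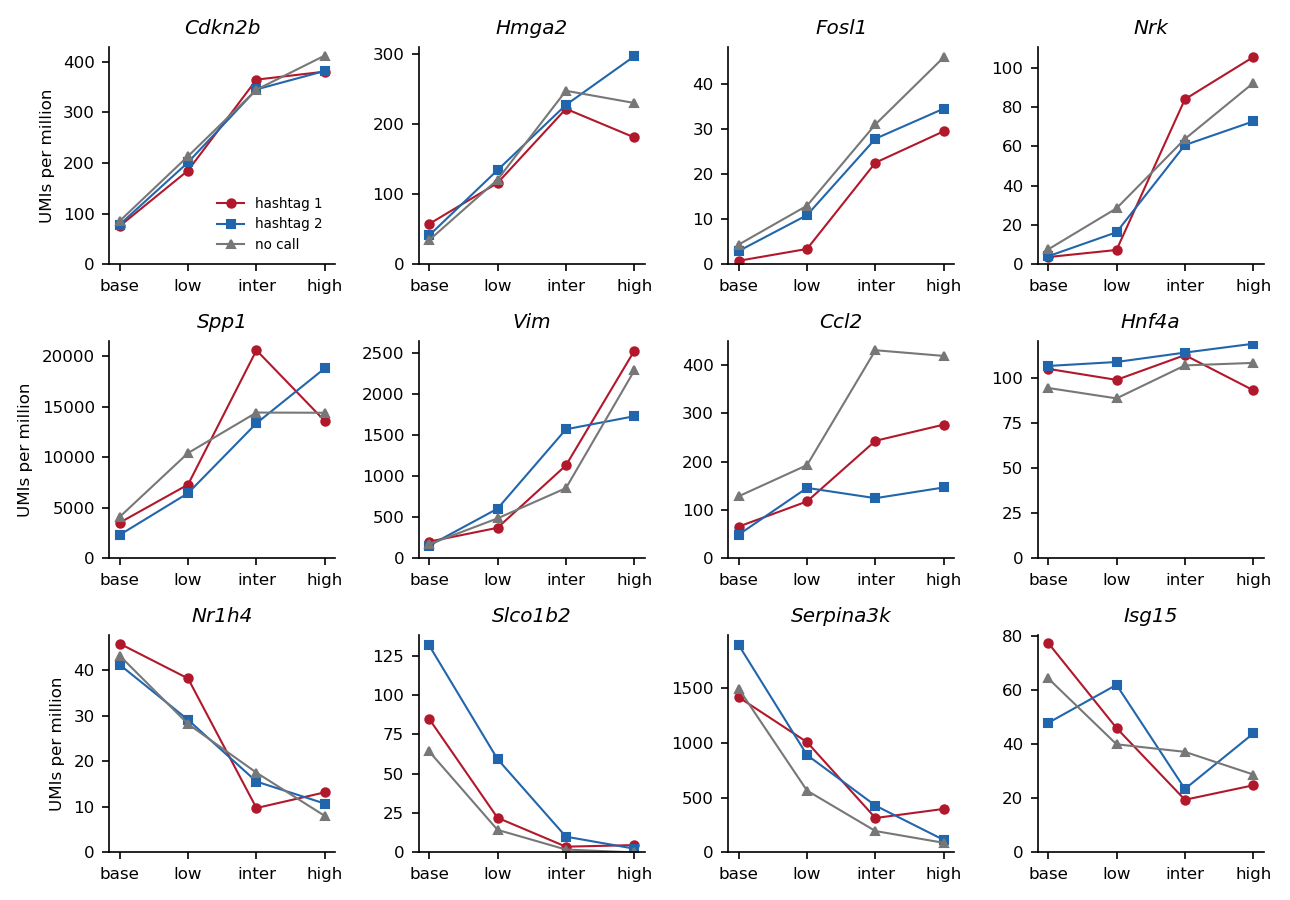
Summed CPM of 12 genes (y axes from 0, each panel on its own scale) in baseline, low, intermediate and high cells of hashtag 1, hashtag 2 and the uncalled cells. Cdkn2b was between 345.1 and 364.9 CPM at intermediate Nras in all 3 sets, whereas Ccl2 at intermediate Nras ranged from 124.6 CPM in hashtag 2 to 430.7 CPM in uncalled cells.

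Genes of cell shape and of the cell surface were mostly higher. Of 24 tested genes of the cytoskeleton, annexins and S100 proteins 16 rose and 1 fell, with a median of 0.45. Vim, the intermediate filament vimentin of mesenchymal and injured epithelial cells, was at 372.2 and 1131 CPM in hashtag 1 and at 605.1 and 1570 CPM in hashtag 2. S100a6, a calcium-binding protein, was at 2442 and 6099 CPM in hashtag 1 and at 3022 and 6750 CPM in hashtag 2. For both genes the lower intermediate sum was above the higher low sum, which their choice as the largest called rises of the list makes likely. Marcks, an actin-binding kinase substrate, fell 1.51-fold, a call lost with DESeq2. The list summed to a median of 9193 CPM in low and 18520 CPM in intermediate cells of hashtag 1, and to 7899 and 14840 CPM in those of hashtag 2.

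Of 13 tested genes of proteases and matrix remodelling 9 rose and 1 fell, with a median of 0.64. Plaur, the urokinase receptor, was at 19.6 and 57.8 CPM in hashtag 1 and at 38.3 and 84.3 CPM in hashtag 2. Tnc, the matrix protein tenascin C, had 1 UMI in the low and 18 UMIs in the intermediate cells of hashtag 1, a 22.4-fold ratio with an exact 95% interval of 3.53 to 933 for counting error only, and was at 4.22 and 11.8 CPM in hashtag 2; DESeq2 gave it no adjusted p. Fn1, fibronectin, fell 1.26-fold, and its call was lost with DESeq2. The squamous envelope list, genes of cornifying epithelia, had 6 higher and 0 lower of 7 tested members, with a median of 1.27. Of the 6, 5 moved the same way in both mice. Sprr1a, a cornified envelope precursor, was at 310.1 and 872.7 CPM in hashtag 1, at 331.9 and 842.1 CPM in hashtag 2 and at 349.0 and 923.8 CPM in uncalled cells. Emp1, an epithelial membrane protein, rose 2.51-fold and lost its call with DESeq2. The other 13 listed genes were too low to be tested.

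Progenitor and biliary genes were divided, with 8 higher and 3 lower of 20 tested and a median of 0.14. Spp1, osteopontin, which biliary and injured hepatic cells secrete, was at 7310 and 20610 CPM in hashtag 1, at 6461 and 13380 CPM in hashtag 2 and at 10430 and 14440 CPM in uncalled cells. Krt23, a keratin induced in liver injury, rose 3.01-fold and lost its call with DESeq2. Prom1, the progenitor surface protein CD133, fell 1.91-fold, with 10.3 and 5.47 CPM in the sums of hashtag 1 and 10.1 and 5.08 CPM in those of hashtag 2. Hes1, a Notch target, fell 1.32-fold. Afp, the fetal plasma protein, fell 1.23-fold, whereas uncalled cells had 437.0 CPM at low and 515.3 CPM at intermediate Nras. All 3 calls were lost without the mouse block, and those of Hes1 and Afp also with DESeq2, which gave Prom1 no adjusted p.

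Dlk1, a surface protein of fetal hepatoblasts, was at 12.7 and 1.22 CPM in hashtag 1 (26 and 2 UMIs, a 10.5-fold ratio with an exact 95% interval of 2.62 to 90.9) and at 29.5 and 37.1 CPM in hashtag 2. It did not pass the test (log2 fold change 0.03, SE 0.20, edgeR adjusted p = 0.976), and high cells had 0 and 1.39 CPM. Without cells in the cell cycle Dlk1 did pass the edgeR test, as higher at intermediate Nras. Over all settings its log2 fold change lay between -1.86 and 0.80. Gpc3, an oncofetal proteoglycan, was at most 1.76 CPM in the 4 sums and was not tested.

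MYC and its targets had 8 higher and 0 lower of 30 tested members, with a median of 0.19. Odc1, the first enzyme of polyamine synthesis, rose 1.57-fold and the nucleolar protein gene Nop58 1.37-fold, and both calls were lost with DESeq2 and without the mouse block. Myc itself was at 27.9 and 38.9 CPM in hashtag 1 and at 24.2 and 27.5 CPM in hashtag 2 and did not pass the test (edgeR adjusted p = 0.305). Cell cycle genes were rare. Of 8 tested members 2 passed, Cdk1 and Birc5, and both moved in opposite directions in the mice: Cdk1, the mitotic kinase, was at 4.89 and 1.22 CPM in hashtag 1 and at 1.93 and 9.27 CPM in hashtag 2. Cells with at least 3 UMIs over 6 mitotic genes numbered 3 of 40 low and 0 of 26 intermediate cells in hashtag 1, and 3 of 231 and 2 of 107 in hashtag 2. The 0 of 26 cells allow a share of up to 11.5%. YAP targets had 1 higher member of 10 tested and a median of -0.06. This was Ankrd1, an ankyrin repeat cofactor of transcription, which rose 1.47-fold and lost its call with DESeq2.

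Metabolic genes of mature hepatocytes were mostly lower. In the urea cycle and periportal list 15 of 20 tested members fell, 0 rose, and the median was -1.15. G6pc, the enzyme that releases glucose from the hepatocyte, had 59 UMIs in the low and 1 UMI in the intermediate cells of hashtag 1, a 47.4-fold ratio with an exact 95% interval of 8.19 to 1910 for counting error only. In hashtag 2 it was at 11.5 and 0.75 CPM, and in uncalled cells at 13.3 and 2.55 CPM. Sds, which degrades serine, was at 28.4 and 2.43 CPM in hashtag 1 and at 6.06 and 0.30 CPM in hashtag 2. DESeq2, which leaves sparse genes out, gave neither an adjusted p. Summed over the list, the median cell had 2134 CPM at low and 938.9 CPM at intermediate Nras in hashtag 1, and 1713 and 651.7 CPM in hashtag 2.

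Of 22 tested genes of bile acid, cytochrome P450 and xenobiotic metabolism 16 fell and 0 rose, with a median of -1.01. Cyp2f2 led them, followed by Cyp2c50, which had 5 UMIs at low and 1 UMI at intermediate Nras in hashtag 1 and no adjusted p from DESeq2. Among bile acid and drug transporters 7 of 15 tested members fell and 2 rose, with a median of -0.62. Slc10a1, the main bile acid importer NTCP, was at 26.9 and 4.26 CPM in hashtag 1 and at 22.6 and 6.58 CPM in hashtag 2, a 3.90-fold fall. The 2 that rose, the efflux pump genes Abcb1a and Abcg2, did so by 2.12-fold and 1.36-fold, and both calls were lost without the mouse block.

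Plasma proteins and apolipoproteins had 23 lower and 1 higher of 30 tested members, with a median of -0.68. Serpina3k, a serine protease inhibitor, was at 1006 and 313.8 CPM in hashtag 1 and at 888.4 and 427.2 CPM in hashtag 2. The higher member, Serpina1b, which has near-identical copies, rose by 0.22 on the log2 scale and lost its call with DESeq2. The list still made up 102800 CPM at low and 88470 CPM at intermediate Nras in hashtag 1, and 105200 and 92730 CPM in hashtag 2. The genes of the selection rule were not uniform either, and are given without a test: Ttr was at 18220 and 8824 CPM in hashtag 1 and at 18350 and 11300 CPM in hashtag 2, whereas Apoa1 was at 21560 and 22470 CPM in hashtag 1 and at 23450 and 22650 CPM in hashtag 2.

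Transcription factors of hepatocytes had 5 lower and 0 higher of 23 tested members and a median of -0.27. Nr1h4, the bile acid receptor FXR, was at 38.2 and 9.73 CPM in hashtag 1 and at 29.1 and 15.5 CPM in hashtag 2, a 2.24-fold fall. Onecut1, which encodes HNF6, fell 2.63-fold. The call of Nr1h4 was lost with DESeq2 and that of Onecut1 with the fixed hashtag rule. Hnf4a was at 98.8 and 112.5 CPM in hashtag 1, at 108.7 and 113.9 CPM in hashtag 2 and at 88.6 and 106.8 CPM in uncalled cells, with a log2 fold change of 0.14 (SE 0.11, edgeR adjusted p = 0.562).

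**Figure D4:**
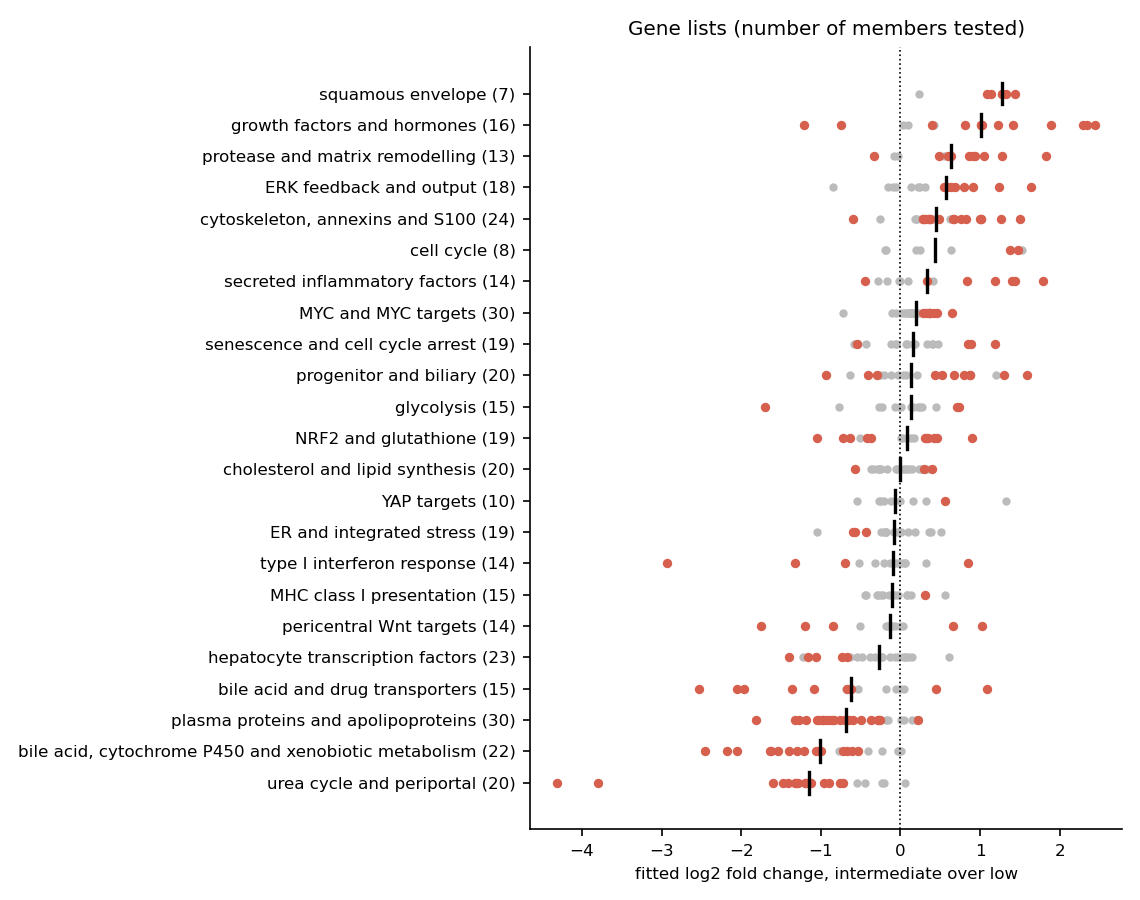
Fitted log2 fold change of intermediate over low Nras for each tested member of 23 gene lists, called members in red and others in grey, with the list median as a bar and the median of all genes tested (-0.0048) as a dotted line. The squamous envelope list (median 1.27) is at the top and the urea cycle and periportal list (median -1.15) at the bottom.

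Other metabolic and stress lists showed mixed changes. Pericentral Wnt targets had 2 higher and 3 lower of 14 tested (median -0.14), and glycolysis 2 higher and 1 lower of 15 (median 0.13). In glycolysis Slc2a1 (GLUT1) and Pkm, forms used by growing and fetal cells, rose 1.66-fold and 1.64-fold. Pkm kept its call with DESeq2, and Slc2a1 did not. NRF2 and glutathione genes had 6 higher and 5 lower of 19, led by Gstp2 (1.87-fold higher) and Gstm3 (2.07-fold lower), both of families with near-identical copies. Both calls were lost with DESeq2, without the mouse block and without the largest cell of each sum. ER and integrated stress genes had 0 higher and 3 lower of 19 (median -0.08), cholesterol and lipid synthesis 2 higher and 1 lower of 20 (median -0.0026), and MHC class I presentation 1 higher and 0 lower of 15 (median -0.10).

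The type I interferon list had 1 higher and 3 lower of 14 tested members, with a median of -0.10. Isg15, a ubiquitin-like interferon product, was at 46.0 and 19.5 CPM in hashtag 1 and at 62.0 and 23.5 CPM in hashtag 2, but at 40.0 and 37.2 CPM in uncalled cells. Ifit1, which binds foreign RNA, had 18 and 1 UMIs in hashtag 1, a 14.5-fold ratio with an exact 95% interval of 2.29 to 603, and was at 16.6 and 2.24 CPM in hashtag 2. Its call was lost with the fixed hashtag rule. The member that rose, Gbp2, a guanylate-binding protein, was at 15.4 and 4.01 CPM in uncalled cells, and with the fixed hashtag rule its log2 fold change was -1.58.

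**Figure D5:**
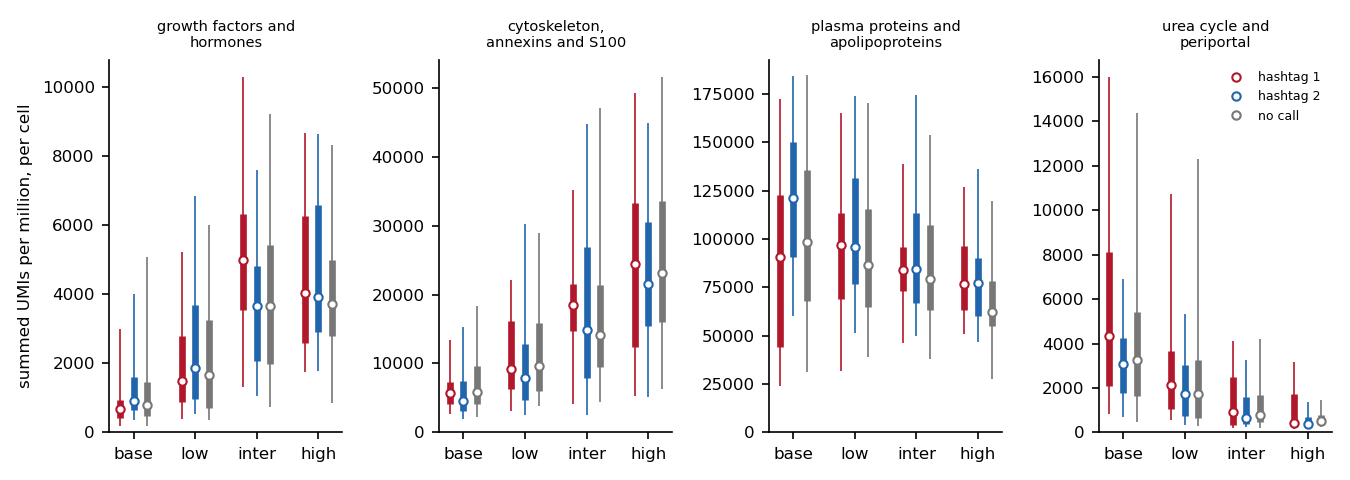
Summed CPM per cell over 4 gene lists, for baseline, low, intermediate and high cells of hashtag 1, hashtag 2 and the uncalled cells; circles are medians, thick bars the middle 50% and thin bars the 5th to 95th percentile of cells. The ranges of low and intermediate cells overlap in every list, and in hashtag 2 the growth factor median is 1851 CPM at low and 3669 CPM at intermediate Nras.

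The second comparison placed the intermediate cells between the low and the high cells, to ask whether any gene lies away from the mean of both. This mean was taken on the log scale, so it is not the mean of the CPM values below. Of 9685 genes tested 0 (background 0%) passed an adjusted p of 0.05 with edgeR, 435 had an unadjusted p under 0.05, and DESeq2 called 0. The smallest adjusted p was 0.0562. It belonged to Ifit3, Isg15, S100a6 and Ifit1, named here after their values were seen. S100a6 had 2442, 6099 and 8088 CPM in low, intermediate and high cells of hashtag 1, and in hashtag 2 it had 3022, 6750 and 8085 CPM, so its intermediate value was nearer to the high one. Isg15 had 46.0, 19.5 and 24.8 CPM in hashtag 1, and in hashtag 2 it had 62.0, 23.5 and 44.0 CPM, so its intermediate value was the lowest of the 3 in both mice. In uncalled cells Isg15 had 40.0, 37.2 and 28.8 CPM, and the high value was the lowest.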

How the data were processed

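Per the labels and methods, cells were captured with the 10x Genomics 3′ v3 chemistry, and the authors aligned reads to mm10 with Cell Ranger (2.1.1 in the submitters' notes, 3.0.2 in the matrix header). The authors deposited raw counts of UMIs per gene and barcode and counts of hashtag UMIs from CITE-seq-Count, neither normalized. 13141 barcodes were in both libraries. Hashtags were called with HTODemux (Seurat 5.3.0, quantile 0.99), which also removed doublets of different mice; doublets within a mouse remain. UMIs were summed per hashtag and Nras level for hashtags with at least 10 cells per level. CPM is per 1000000 gene UMIs other than Nras and mVenus. Sums were tested with edgeR 4.0.16 (TMM, filterByExpr, glmQLFit, glmQLFTest, R 4.3.3) with the hashtag as a block, checked on simulated data, and with DESeq2 1.42.0 as an alternative. The simulated counts had the same spread for every gene and no difference between mice, so that check could not test the shared estimate of spread. The block pairs both levels of a mouse, since each mouse gave cells of both. An SE is the log2 fold change divided by the root of F. The 22 genes of the selection rule that passed the filter received no call.

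Named genes are the 10 largest rises and falls among called genes with at least 20 CPM over all cells of the higher level and the same sign in both hashtags, a panel of 20 genes, and in each of 23 lists the 2 called members with the largest positive and the 2 with the largest negative log2 fold change. The cells, lists and panel were chosen with earlier results of these data known. Exact Poisson-based and binomial 95% intervals cover counting error only. The edgeR p-values rest on a spread between 2 mice that was estimated over all genes, so a gene's own spread between the mice does not enter them. Gene positions are from GENCODE M21 (GRCm38), by Ensembl identifier. Cells with at least 3 UMIs over Mki67, Top2a, Ube2c, Cdk1, Ccnb1 and Birc5 were counted as cycling. A few items are not reported here.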

Additional observations from a re-analysis of the deposited data

Results flagged for a closer look

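The summed level of Ccl2 moved beyond the counting error of its UMIs in opposite directions in the 2 mice. Its level was 117.9 CPM at low and 243.3 CPM at intermediate Nras in hashtag 1. In hashtag 2 it was 145.9 and 124.6 CPM, and the log2 ratio in hashtag 2 minus that in hashtag 1 was -1.27. The difference between the mice was not tested. Uncalled cells were at 193.0 and 430.7 CPM. Among the named genes no other gene moved in opposite directions with non-overlapping 95% Poisson intervals in both mice. Of the genes called by edgeR 19 had opposite directions in the mice, and Ube2c, named after its values were seen, was an example, at 8.32 and 0.61 CPM in hashtag 1 and at 0.97 and 20.9 CPM in hashtag 2.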

How the results depend on the processing

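The count of 1094 genes different between intermediate and low Nras was 1090 with RLE size factors, 962 without a filter and 751 with cells matched on depth. It was 1054 with wider-spaced Nras limits (150 to 600 and 1000 to 2500 CPM). Without cells over 0.2% other markers it was 1090, where the only change was 39 in place of 40 low cells in hashtag 1. With at least 3 cells per sum it was 1094 by construction, since the sums were the same. It moved to 478 with no replicate block, 233 with DESeq2, 482 with the fixed hashtag rule, 369 thinned to 10000 UMIs per cell (5731 genes tested), 651 with at least 20000 UMIs per cell and 608 without the largest cell of each sum. Alternatives added after seeing the data gave 1094 with a robust prior, 862 without cycling cells and 1075 with the same direction in both mice. The share of called genes that were higher was 46.1%, and 34.9% with the fixed hashtag rule. Of the 105 genes 2-fold apart in both mice, leaving out either mouse gave 128 to 250, by 1 mouse and with no test. Genes away from the log-scale mean of low and high Nras numbered 0, and 122 without a filter and 2 after thinning. Signs turned for Dlk1 (-1.32 with DESeq2, -0.14 thinned, -0.10 matched on depth, -1.86 with the other Nras limits), Ccl2 (-0.18), Hes1 (0.024) and Gbp2 (-1.58) with the fixed hashtag rule, Cdkn1a (-0.030, thinned) and Afp (0.032, without cycling cells). Dlk1 kept its sign and gained a call without cycling cells. The cause of these changes was not tested, apart from the fewer cells or UMIs that some of these settings use by construction. Cells of 2 mice, 1 of uncertain construct, limit every value.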
